A study of Mus musculus with 19 samples.

Results

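Antigen presentation was followed through 10 named genes of the mouse major histocompatibility complex (MHC) pathways, out of 54352 genes listed for each library. Of these, 6 belong to the class II pathway (H2-Aa, H2-Ab1, H2-Eb1, H2-DMa, Cd74 and Ciita) and 4 to the class I pathway (H2-K1, H2-D1, B2m and Tap1). They were chosen by name, and all 10 were counted in all 19 libraries and passed the filter on low counts in every comparison.

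The study depleted the long noncoding RNA Spehd in blood progenitors and sequenced RNA from sorted common myeloid progenitors (CMP) and from LSK cells, the lineage-negative Sca1+ cKit+ compartment that holds stem and early progenitor cells and that the labels call KLS. C57BL6 haematopoietic stem cells carrying a doxycycline-inducible shRNA and the reporter zsGreen were transplanted into irradiated C57BL/6-CD45.1; cKit-w41 recipients, which keep some blood cells of their own. After 10 weeks of reconstitution and 6 days of doxycycline, zsGreen+ cells were sorted. All groups, controls included, had the same transplantation and doxycycline. The CMP libraries were 3 with sh10 (knockdown 12928-10 in the labels), 2 with sh20 (12928-20) and 4 with the control shRNA against Renilla luciferase. The LSK libraries were 3 with sh10, 3 with sh20 and 4 with Renilla. The labels name replicates by letter and do not say whether each is 1 animal or a pool, so p-values measure the spread between these libraries, which may in part be technical. The ages of the animals were not in the labels.

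Class II molecules present peptides from endocytosed proteins to helper T cells and are typical of dendritic cells, B cells and macrophages. Their transcription depends on the coactivator Ciita, which is recruited by factors bound to the X and Y boxes of class II promoters. Class I molecules present peptides from the cytosol on nearly all nucleated cells, and need the light chain B2m for a stable surface complex and the Tap1 and Tap2 transporter to bring peptides to the loading complex. Interferon gamma raises both pathways in many cell types.

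Library totals on genes ran from 3647318 to 5965155, around a median of 4918631. In CMP the Spehd shRNA libraries were all deeper, at 4918631 to 5965155 counts, than the Renilla libraries, at 3857980 to 4314959, and the ratio of the mean totals was 1.303. In LSK the totals were 4649170 to 5617906 with Spehd shRNAs and 3647318 to 4967015 with Renilla. Ly6a, which encodes Sca1, gave 189 to 427 counts in LSK and 9 to 58 in CMP, and the erythroid factor Gata1 gave 1158 to 1492 counts in CMP and 216 to 652 in LSK. The summed level of 10 LSK markers was 1867 to 2923 CPM in LSK and 1237 to 1752 CPM in CMP. The summed level of 8 CMP markers did not separate the populations, at 1430 to 2207 CPM in CMP and 1842 to 2434 CPM in LSK, with group means of 2014 CPM in CMP Renilla and 2248 CPM in LSK Renilla. No counted gene is named Spehd, and its depletion was not checked here. In 3 libraries other values stood apart. CMP sh20 replicate C held 206 counts of the B cell receptor subunit Cd79a, against at most 31 in the other libraries. CMP sh20 replicate B held 638 counts of the macrophage complement gene C1qb and 294 of Adgre1, the highest of the 19 libraries for both. In LSK sh10 replicate B the median log2 level of 3356 genes with transcripts over 6000 bases lay 0.53 below the median of all libraries, and that of 711 genes under 1500 bases lay 0.33 above it. Calls named below that rest on these libraries are given with and without them.

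All but B2m, Ciita and Cd74 lie in the MHC region of chromosome 17 in GENCODE vM21 on GRCm38. All are annotated as protein-coding. H2-Aa lies at chr17:34282744-34287823 on the minus strand, H2-Ab1 at chr17:34257689-34269419, H2-Eb1 at chr17:34305867-34316674 and H2-DMa at chr17:34119541-34139101. Among the class I genes, H2-K1 lies at chr17:33996017-34000347 on the minus strand, Tap1 at chr17:34187553-34197225 and H2-D1 at chr17:35262730-35267499. Outside the region, B2m lies at chr2:122147686-122153083 and Ciita at chr16:10480059-10528418. Exons of H2-DMa overlap those of Brd2 on the other strand, those of Ciita overlap Dexi and those of Tap1 overlap Psmb9. The study's methods state default parameters, and HTSeq-count by default counts by strand, but whether the library kit kept the strand is not given in the sources used here, so reads in these overlaps cannot be assigned with certainty. Of all 50-base windows of its transcripts, H2-K1 shares 9.63% and H2-D1 12.77% with other genes.

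The 5′ flanks of these genes are shown because class II and class I promoters are known for shared boxes ahead of the start. RefSeq promoters of GRCm38.p6 were matched for 7 of the 10 genes, and H2-Ab1, Cd74 and Ciita had no match. The sequences below run from 150 to 6 bases before the transcript start on the gene's own strand, and capitals mark matches to ATTGG, the Y box core, to TGACG, the X2 box core, or to GAAANNGAAA, an interferon response element, each on either strand. H2-Aa (chr17:34287829-34287973, minus strand) and H2-Eb1 (chr17:34305717-34305861, plus strand) are shown as class II chains, H2-K1 (chr17:34000353-34000497, minus strand) as a class I heavy chain and B2m (chr2:122147537-122147681, plus strand) as the light chain.
H2-Aa: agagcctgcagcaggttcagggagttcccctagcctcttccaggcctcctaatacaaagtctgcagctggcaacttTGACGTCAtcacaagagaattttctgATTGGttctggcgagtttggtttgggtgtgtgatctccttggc
H2-Eb1: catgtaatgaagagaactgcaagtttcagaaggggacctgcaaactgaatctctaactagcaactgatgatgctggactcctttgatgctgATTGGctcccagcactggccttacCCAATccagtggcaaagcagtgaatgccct
H2-K1: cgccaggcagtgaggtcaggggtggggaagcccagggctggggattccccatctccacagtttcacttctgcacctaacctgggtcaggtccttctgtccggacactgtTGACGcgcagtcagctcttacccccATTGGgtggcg
B2m: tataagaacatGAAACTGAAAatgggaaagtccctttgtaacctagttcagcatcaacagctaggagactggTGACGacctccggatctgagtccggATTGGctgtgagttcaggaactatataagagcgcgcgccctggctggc

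In H2-Aa the 2 overlapping TGACG matches, 1 on each strand, stand as the run TGACGTCA ahead of ATTGG. In H2-K1 and B2m a TGACG also precedes an ATTGG, and H2-Eb1 holds ATTGG and its reverse complement without TGACG in this stretch. Over the 250 bases before the start, ATTGG occurs in 33.85% of the 32851 promoters of the table, TGACG in 17.77% and GAAANNGAAA in 2.977%. Such short matches are a description of the letters and not of bound sites.

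Expression was compared between genes on a scale per length, as CPM, which are counts scaled to a common library size with TMM factors, divided by the exonic length in kilobases. Averaged over the 19 libraries, B2m had the highest level at 198 ± 26.7 CPM per kilobase (SD, n = 19). H2-D1 (119.5 ± 14.6), Cd74 (118 ± 32.6) and H2-K1 (113 ± 15.4) followed and lay within 1 SD of each other, as did Tap1 (65.8 ± 7.39) and H2-Ab1 (65.1 ± 19.2). H2-Eb1 (45.3 ± 29.4), H2-DMa (40.6 ± 7.10) and H2-Aa (28.35 ± 14.0) were lower and overlapped in spread, and Ciita was lowest at 1.86 ± 1.11. The order changed with cell type. In CMP the mean of H2-Eb1 lay below that of H2-DMa (28.8 and 34.9) and in LSK above it (60.1 and 45.7). Tap1 lay above H2-Ab1 in CMP (62.5 and 54.6) and below it in LSK (68.7 and 74.5). Duplicate alignments had been removed before counting. The mean count per exonic base was 0.942 for B2m, rank 3 of 13145 genes averaging 10 counts or more, 0.570 for H2-D1, rank 88, and 0.563 for Cd74, rank 102, against a median over genes of 0.0549, and the part of duplicate removal in the order of the highest levels was not tested.

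Class II levels spread widely among libraries of the same group. H2-Aa, the alpha chain of the class II molecule I-A, stood at 37.9, 40.2, 131 and 111 CPM in the CMP Renilla libraries A to D, at 59.5, 38.4 and 70.4 CPM in CMP sh10, and at 137 and 80.8 CPM in CMP sh20. In LSK it stood at 154, 119, 220 and 71.9 CPM with Renilla, at 85.8, 177 and 107 CPM with sh10, and at 154, 182 and 69.4 CPM with sh20. In CMP Renilla, libraries A and B were low and C and D high, and the range of these 4 libraries covered all but 1 of the other CMP libraries. H2-Ab1, the beta chain that pairs with H2-Aa, ranged from 104 to 202 CPM in CMP and from 107 to 290 CPM in LSK.

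H2-Eb1, the beta chain of the I-E molecule, spread furthest of the class II chains, with its highest count 9.46 times its lowest. Its level was 30.02, 23.4, 91.0 and 83.7 CPM in CMP Renilla, 34.1, 23.9 and 30.9 CPM in CMP sh10, and 130 and 56.9 CPM in CMP sh20. In LSK it was 144, 96.4, 201 and 40.8 CPM with Renilla, 69.6, 174 and 85.1 CPM with sh10, and 132, 181 and 45.0 CPM with sh20. The sh20 and sh10 libraries of CMP did not overlap, while both overlapped the Renilla libraries. H2-Ea-ps, the pseudogene of the I-E alpha chain in this strain, had 0 counts in all 19 libraries.

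Cd74, the invariant chain that guards the class II groove during transport, ranged from 129 to 249 CPM in CMP and from 110 to 322 CPM in LSK. H2-DMa, a chain of the DM molecule that exchanges invariant chain fragments for peptide, varied least among the class II genes, at 103 to 147 CPM in CMP and 142 to 197 CPM in LSK. Ciita, the class II coactivator, had few counts. It gave 47, 39, 56 and 59 counts in CMP Renilla, 54, 30 and 41 in CMP sh10, and 197 and 139 in CMP sh20. In LSK it gave 94, 101, 111 and 36 counts with Renilla, 83, 137 and 70 with sh10, and 216, 129 and 11 with sh20. Both CMP sh20 libraries lay above every other CMP library, and the LSK sh20 libraries held both the highest and the lowest count of all 19.

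**Figure D1:**
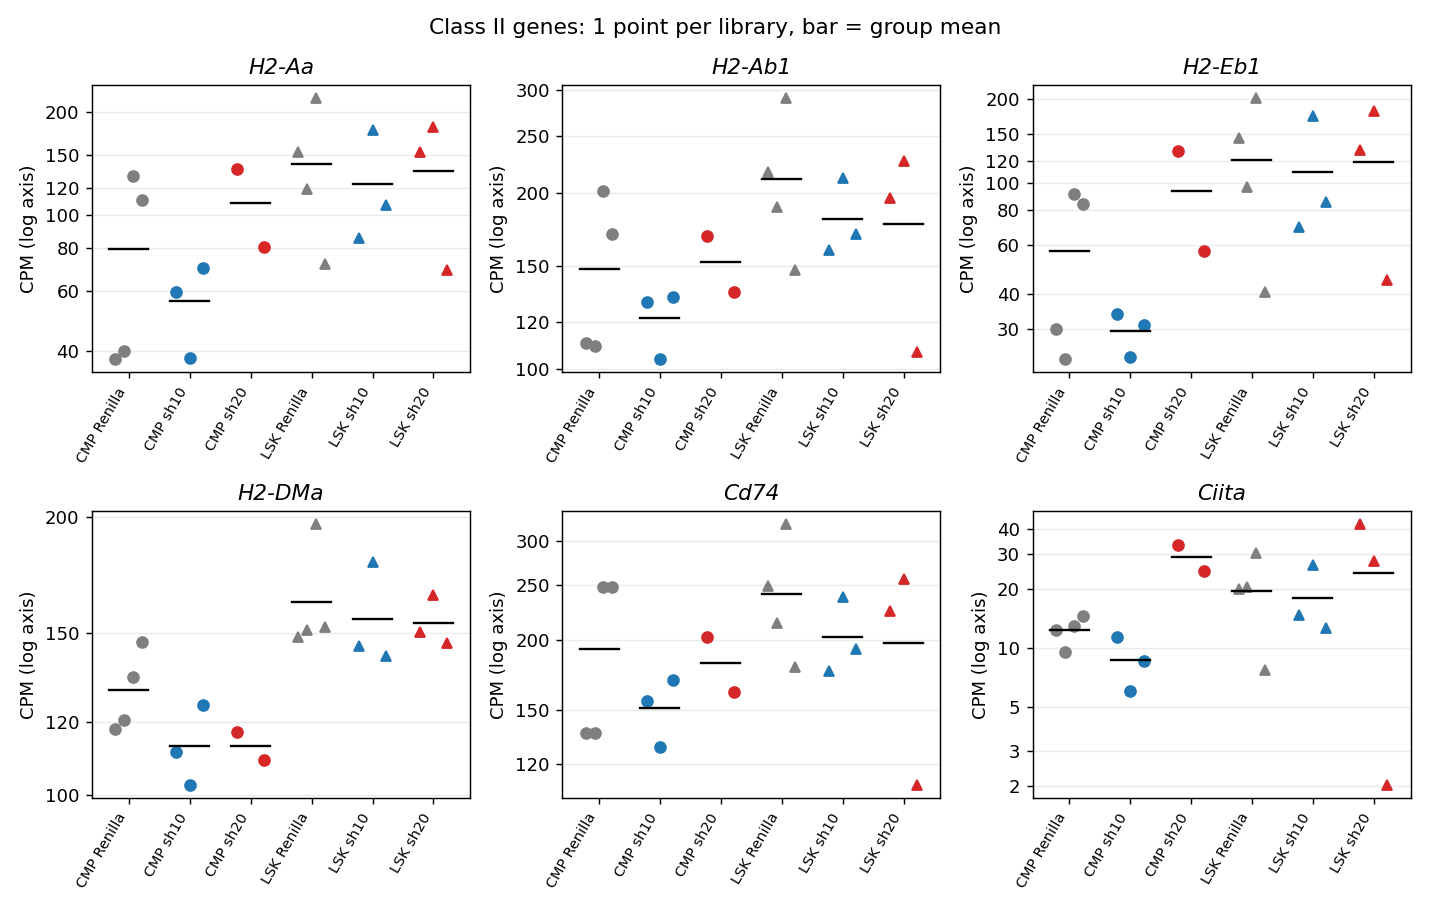
Level of the 6 class II genes in each library, in CPM on a log axis, by cell type and shRNA, with circles for CMP, triangles for LSK and a bar at each group mean. For Ciita the CMP sh20 libraries lie at 33.4 and 24.4 CPM, above all other CMP libraries at 6.03 to 14.5 CPM, while the remaining class II genes overlap between CMP sh20 and CMP Renilla except H2-DMa.

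The class II chains moved together from library to library. Over the 19 libraries Pearson's r of log2 CPM was 0.97 between H2-Aa and H2-Eb1, 0.95 between H2-Aa and H2-Ab1, 0.97 between H2-Ab1 and Cd74, and 0.68 between H2-Aa and Ciita. Across libraries the points share their depth and cell type, and these values are given as a description. Among genes outside the 10, the levels most like the mean standardized level of H2-Aa, H2-Ab1, H2-Eb1, H2-DMa and Cd74 over the 19 libraries were those of Ckb (r = 0.915), Cadm1 (0.861), Wbp2 (0.849), the DM beta chain H2-DMb1 (0.844) and Ube2d1 (0.841). After the 6 group means were removed, they were Ckb (0.922), Plbd1 (0.878), H2-DMb1 (0.845), the dendritic cell chemokine receptor Xcr1 (0.830) and the interferon regulatory factor Irf8 (0.826).

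**Figure D2:**
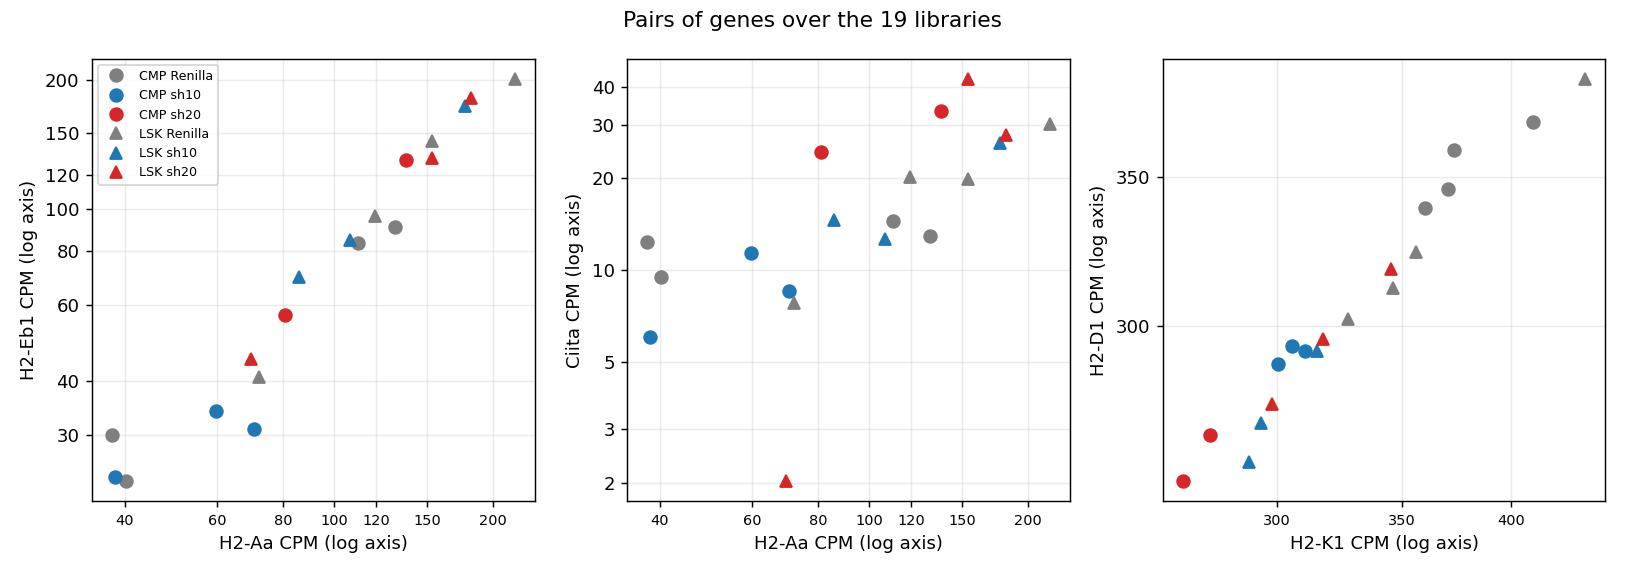
Pairs of genes over the 19 libraries, in CPM on log axes, with colours for the shRNA, circles for CMP and triangles for LSK. H2-Aa and H2-Eb1 vary together (r = 0.97), and H2-Aa and Ciita scatter more widely (0.68). For H2-K1 and H2-D1 r is 0.98, but their counts differ by at most 1.13 times between libraries, so their CPM mostly carries the shared scaling to depth.

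Markers of cells that carry class II molecules were read beside these levels. Xcr1 had 136, 40, 120 and 9 counts in LSK Renilla, 46, 123 and 47 in LSK sh10, 59, 96 and 1 in LSK sh20, and 0 to 11 counts in the CMP libraries. In LSK the libraries lowest in Xcr1, Renilla D and sh20 C, were also the lowest of their groups in H2-Aa, H2-Ab1, H2-Eb1, Cd74 and Ciita. The summed level of all 15 dendritic cell markers was 683 to 807 CPM in LSK Renilla, 687 to 796 CPM in LSK sh10 and 631 to 752 CPM in LSK sh20. In CMP it was 496 to 572 CPM with Renilla, 569 to 661 CPM with sh10 and 353 to 477 CPM with sh20, and between 0 and 4 of the 15 markers were at 0 in a library. Among the defining markers, Clec9a had 0 counts in 1 CMP library and at most 18 in the others, and Cd209a and Siglech had at most 28 counts in any library. Such counts add little to the sums, and the list also holds Flt3, which is on the LSK marker list too. The sums therefore do not measure dendritic cells alone. The summed level of 14 monocyte and macrophage markers was 477 to 801 CPM in CMP sh20, 344 to 433 CPM in CMP sh10 and 302 to 609 CPM in CMP Renilla, with at most 1 marker at 0. For 15 B cell markers it was 218 to 534 CPM in CMP sh20, 216 to 301 CPM in CMP sh10 and 161 to 253 CPM in CMP Renilla, with 2 to 7 markers at 0 in these libraries. Of the defining B cell genes, Pax5 and Ms4a1 had 0 counts in both CMP sh20 libraries. Blnk, an adaptor of B cell receptor signalling, had 59 and 202 counts there and 7 to 18 in CMP Renilla. In sh20 against Renilla in CMP Blnk rose by 2.90 ± 0.53 (adjusted p = 0.01698, edgeR), the 1 call among 7 B cell markers tested, beside 1.9% of all genes that were higher, while Cd22 (3.05 ± 1.15), Vpreb1 (2.69 ± 1.24) and Igkc (2.19 ± 0.95) did not pass and DESeq2 called 6 higher, beside 697 of the 15507 genes it tested. The call of Blnk held without CMP sh20 replicate B (3.53) and without replicate C (1.72). In the same comparison Cx3cr1 (3.11 ± 0.71, adjusted p = 0.03549) and C1qa (1.82 ± 0.46, adjusted p = 0.04938) rose, 2 of 14 monocyte and macrophage markers, also beside 1.9% of all genes. Without replicate B neither passed, with Cx3cr1 at 1.04 (adjusted p = 0.3122) and C1qa at 1.65 (adjusted p = 0.09659), and without replicate C both did. Of 13 dendritic cell markers tested, 1 fell in this comparison, the chemokine receptor Ccr9, with 2 and 3 counts in CMP sh20 against 33 to 108 in CMP Renilla (adjusted p = 0.01322), and of 9 T and NK cell markers 1 fell, Klrb1c (-1.97 ± 0.42, adjusted p = 0.02923), both beside 4.27% of all genes. Both calls held without either CMP sh20 library. The part of such cells in the class II levels was not tested, and in bulk RNA a change in the number of cells of a type and a change in RNA per cell cannot be told apart.

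Counts of H2-K1, H2-D1 and B2m, taken after the removal of duplicate alignments, varied little between libraries and did not follow library depth. H2-K1, a classical class I heavy chain, gave 1560, 1519, 1552 and 1520 counts in CMP Renilla, 1454, 1496 and 1488 in CMP sh10, and 1631 and 1522 in CMP sh20. In LSK it gave 1638, 1631, 1607 and 1648 counts with Renilla, 1645, 1648 and 1629 with sh10, and 1611, 1606 and 1624 with sh20. These counts differed by at most 1.13 times over all libraries, while the library totals differed by 1.64 times. H2-D1, the other classical heavy chain, ranged from 1398 to 1583 counts, also 1.13 times.

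B2m, the light chain of class I, gave 794, 797, 814 and 815 counts in CMP Renilla, 796, 792 and 795 in CMP sh10, 831 and 818 in CMP sh20, and 797 to 825 in the 10 LSK libraries. The variance of its counts over the 19 libraries was 0.193 times their mean, where independent counting alone gives a ratio near 1. The transcripts of B2m hold 811 distinct 50-base windows, and the part of duplicate removal in the evenness of these counts was not tested. Of 3511 genes averaging 500 counts or more, 13 (0.370%) had a ratio under 1 and the median ratio was 35.6. B2m ranked 2 from the lowest, H2-D1 (1.62) ranked 26 and H2-K1 (2.53) ranked 55. Tap1, a subunit of the peptide transporter, had a ratio of 40.4 and ranged from 1321 to 2222 counts.

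Mean counts of H2-K1, H2-D1 and B2m in the CMP Spehd libraries were 0.987, 1.012 and 1.002 times those in CMP Renilla, and Tap1 was at 1.22 times, beside the ratio of 1.303 for the totals. Scaled to depth, H2-K1 stood at 411, 370, 360 and 373 CPM in CMP Renilla, 306, 301 and 311 CPM in CMP sh10, and 276 and 267 CPM in CMP sh20. In CMP the 3 groups did not overlap for H2-K1, H2-D1 or B2m, and the order of the groups in CPM was the reverse of their order in total counts. In LSK, H2-K1 stood at 346, 328, 438 and 356 CPM with Renilla, 290, 315 and 294 CPM with sh10, and 318, 345 and 298 CPM with sh20. The highest value, in LSK Renilla C, came from the library with the fewest counts.

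**Figure D3:**
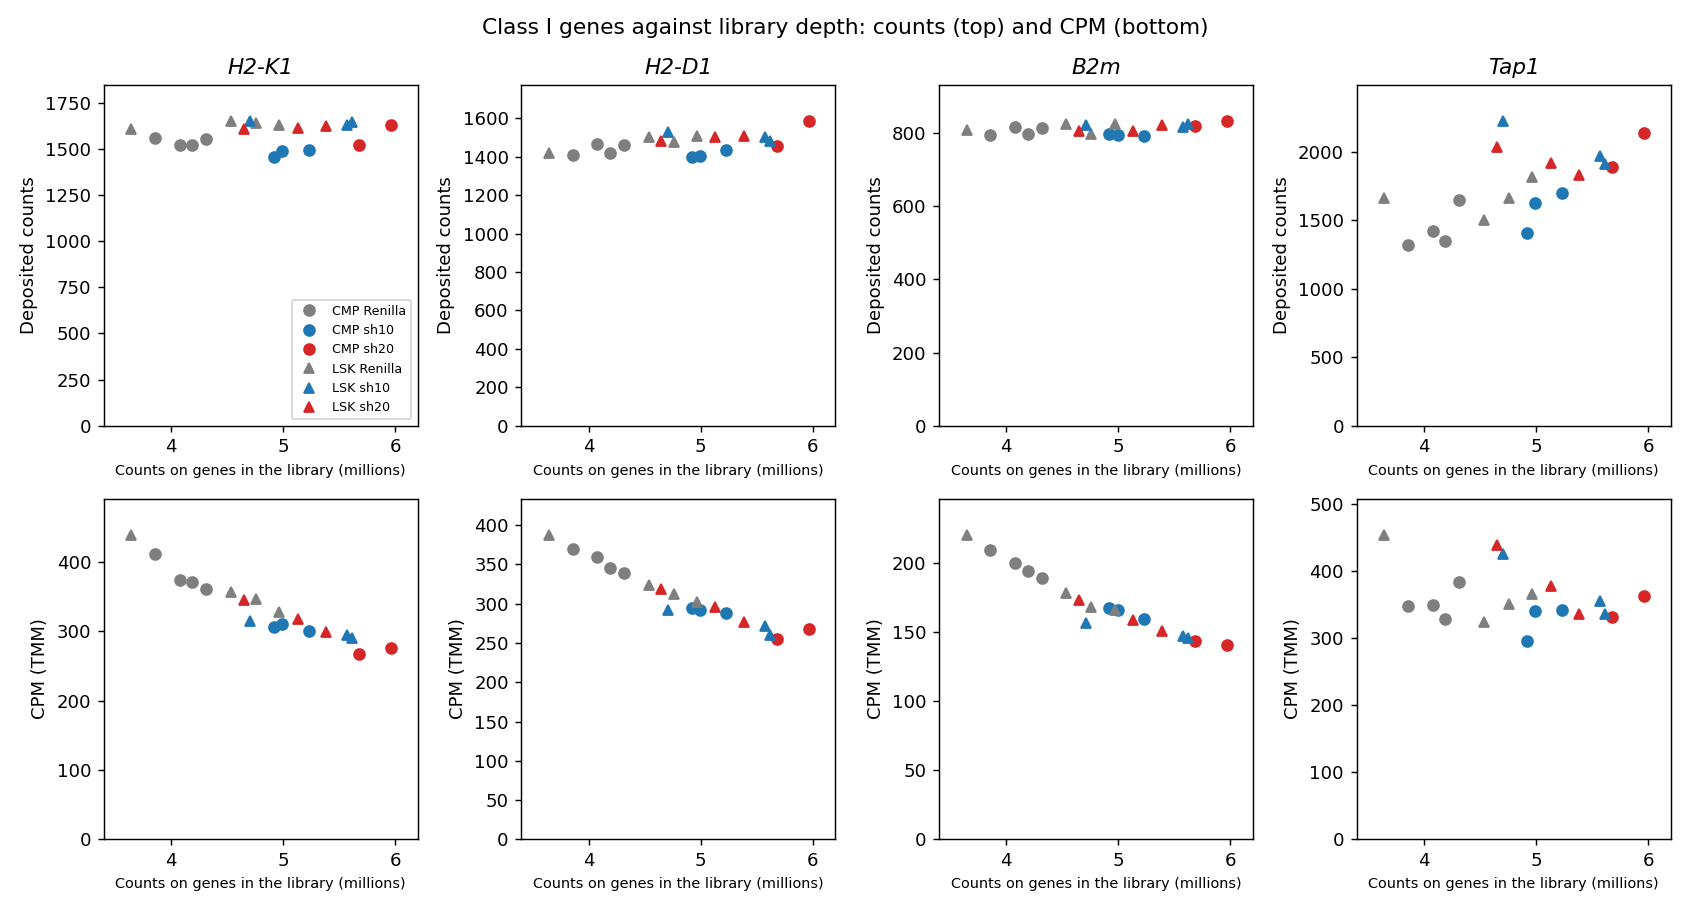
Deposited counts (top) and CPM scaled by TMM (bottom) of H2-K1, H2-D1, B2m and Tap1 in each library, against the library's total on genes, with colours for the shRNA, circles for CMP and triangles for LSK. The counts of B2m stay between 792 and 831 from the shallowest to the deepest library, so its CPM falls along the depth axis.

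Over the 19 libraries r of log2 CPM was 0.98 between H2-K1 and H2-D1, 0.99 between H2-D1 and B2m, and 0.25 to 0.37 between Tap1 and these 3 genes. Counts of each of the 3 differed by at most 1.13 times while the library totals differed by 1.64 times. Their CPM therefore mostly carries the shared scaling to depth, and an r near 1 between them says little more. Tap1 had r of 0.72 to 0.79 with H2-Aa, H2-Ab1, H2-Eb1, H2-DMa and Cd74. With the group means removed, r of Tap1 was 0.64 to 0.73 with H2-K1, H2-D1 and B2m, and 0.72 to 0.76 with those class II genes. The genes outside the 10 whose levels were most like those of the 4 class I genes were Adgrg1 (r = 0.966), the immunoproteasome subunit Psmb8 (0.965), Mdh1 (0.955), Itm2b (0.952) and Arpc4 (0.952). With the group means removed they were Adgrg1 (0.968), Gm20721 (0.967), H2afx (0.964), Gnas (0.963) and Capzb (0.960). The counts of Adgrg1 ranged from 3107 to 3696, those of Gm20721 from 1410 to 1508 and those of Gnas from 1539 to 1678, so the same limit holds for these r.

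The first comparison asked whether Spehd depletion changed the 10 genes in CMP. With both shRNAs as 1 group, the log2 fold change was -0.37 ± 0.06 (SE) for H2-K1, -0.34 ± 0.06 for H2-D1 and -0.35 ± 0.07 for B2m, and the quasi-likelihood test of edgeR gave adjusted p = 0.0564, 0.0564 and 0.06996 after Benjamini-Hochberg adjustment across every gene tested. None of the 10 genes passed the threshold of 0.05, beside 0.116% of all 12912 genes tested in either direction. These 3 genes had an unadjusted p under 0.05, as did 16.64% of all genes. DESeq2 placed the same 3 genes lower, with adjusted p = 9.488e-05, 0.0001063 and 0.002026, beside 4.62% of the genes it tested. H2-Aa (-0.05 ± 0.44), H2-Eb1 (-0.04 ± 0.56) and Tap1 (-0.07 ± 0.07) lay near 0. The median was -0.17 over the 10 genes and 0.02 over all genes. Without CMP sh20 replicate B the 3 class I genes passed, with H2-K1 at -0.35 (adjusted p = 0.03285). Leaving out all 3 libraries that stood apart removes both CMP sh20 libraries and leaves sh10 against Renilla, where the 3 genes passed with H2-K1 at -0.32 (adjusted p = 0.01322). With the logarithm of total counts as a covariate, H2-K1 stood at -0.09, H2-D1 at -0.11 and B2m at -0.02. In CMP the totals do not overlap between Spehd and Renilla, so a fit with this covariate cannot tell depth from shRNA. It left 0 of all genes called.

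For sh10 against Renilla in CMP, H2-K1 (-0.31 ± 0.06) and H2-D1 (-0.28 ± 0.05) were lower, both with adjusted p = 0.03299 (edgeR). That is 2 of 10 genes, beside 0.991% of all genes tested that were lower. B2m was at -0.27 ± 0.06 with adjusted p = 0.05854. All 10 fold changes were negative, with a median of -0.30 against -0.01 over all genes, and the mean total of the sh10 libraries was 0.30 above that of Renilla on the log2 scale. The calls of H2-K1 and H2-D1 were lost without any 1 of sh10 replicates A, B or C or Renilla replicates A, C or D, with fold changes between -0.33 and -0.26. With total counts as a covariate H2-K1 stood at -0.07, H2-D1 at -0.12 and B2m at -0.02, and 0 of all genes passed. The totals of sh10 and Renilla do not overlap, so that fit cannot tell depth from shRNA. None of the 10 genes passed in a joint fit of the 19 libraries either, and H2-D1 was also lost without a filter (adjusted p = 0.05558). In the same comparison 6 of 9 T and NK cell markers tested were lower, among them Klrb1c (-3.41 ± 0.40) and Ncr1 (-3.01 ± 0.36). From the dendritic cell list 2 of 13 were lower, Ccr9 and Klrd1 (-2.78 ± 0.33), but Klrd1 is also a receptor gene of NK cells. Both counts stand beside 0.991% of all genes, and the part of these markers in the result was not tested. The class II genes lay between -0.95 ± 0.50 for H2-Eb1 and -0.20 ± 0.11 for H2-DMa, and none of them passed. The 95% interval of H2-Aa ran from -1.41 to 0.37 and that of Ciita from -1.08 to 0.05.

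For sh20 against Renilla in CMP, H2-K1 (-0.46 ± 0.06, adjusted p = 0.009303), H2-D1 (-0.42 ± 0.06, adjusted p = 0.009303) and B2m (-0.46 ± 0.07, adjusted p = 0.009713) were lower in edgeR's quasi-likelihood test, 3 of 10 beside 4.27% of all genes tested. Ciita was higher at 1.24 ± 0.31 with adjusted p = 0.04513, 1 of 10 beside 1.9% of all genes. The markers Blnk, Cx3cr1 and C1qa were higher and Ccr9 and Klrb1c lower in the same comparison, and their part in the result was not tested. The mean total of the sh20 libraries was 0.50 above Renilla on the log2 scale. Both sh20 libraries lay apart from all Renilla libraries for 5 of the 10 genes, these 4 and the uncalled H2-DMa. The share over all genes was not taken. With total counts as a covariate none of the 4 passed the threshold, and H2-K1 stood at -0.05, H2-D1 at -0.15, B2m at -0.03 and Ciita at 1.94. In that fit 0 of all genes passed, and it cannot tell depth from shRNA because the totals of sh20 and Renilla do not overlap. The calls of H2-K1, H2-D1 and B2m held without any 1 CMP library. That of Ciita held without sh20 replicate C (1.46) and was lost without sh20 replicate B (0.99) or without any 1 of the Renilla or sh10 libraries, which left fold changes of 1.13 to 1.34. It was also lost without a filter (1.25, adjusted p = 0.0657) and in a joint fit of the 19 libraries (1.23, adjusted p = 0.315), and passed in 5 of 17 alternatives. Without sh20 replicate B the fold change of H2-Eb1, 0.72 ± 0.53 with all libraries, was -0.00. The sh10 and sh20 comparisons share their Renilla libraries and are set side by side only.

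**Figure D4:**
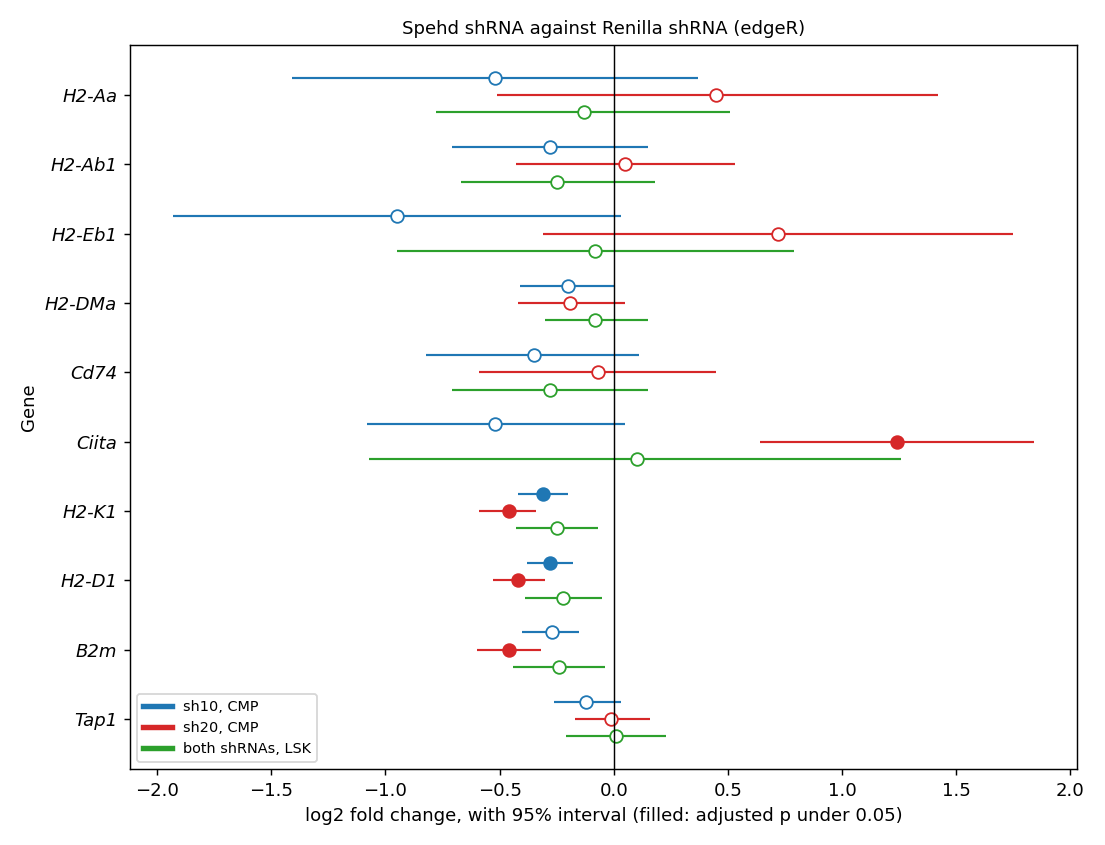
Log2 fold change of the 10 genes with 95% intervals for sh10 and sh20 against Renilla in CMP and for both shRNAs against Renilla in LSK; filled points passed an adjusted p of 0.05. H2-K1, H2-D1 and B2m lie below 0 with narrow intervals, Ciita is above 0 with sh20 (1.24) and below 0 with sh10 (-0.52), and no LSK point is filled.

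The difference between the shRNAs in CMP was tested without the Renilla libraries in the contrast. Ciita was higher with sh20 than with sh10, by 1.75 ± 0.33 on the log2 scale (adjusted p = 0.02144, edgeR's quasi-likelihood test), 1 of 10 genes beside 2.77% of all genes tested that were higher. With total counts as a covariate it was at 2.06 and did not pass (adjusted p = 0.4238). The totals of sh10 and sh20 do not overlap either, so that fit cannot tell depth from shRNA, and 0 of all genes passed. In the same contrast 5 of 9 T and NK cell markers were higher, among them Ncr1 (2.34 ± 0.39) and Cd3d, which had 0, 1 and 2 counts with sh10 and 128 and 68 with sh20. C1qa (2.12 ± 0.50, adjusted p = 0.04111) and Klrd1 (2.22 ± 0.36) were higher as well and the dendritic cell factor Tcf4 was lower (-0.68 ± 0.17), and the part of these markers in the result was not tested. Without sh20 replicate B the call of C1qa was lost (1.95, adjusted p = 0.06232) and without replicate C that of Tcf4 (-0.39, adjusted p = 0.05473), while those of Klrd1 and the 5 T and NK cell markers held without either. H2-Eb1 stood at 1.68 ± 0.57 with adjusted p = 0.1002 (edgeR) and 0.02081 (DESeq2). H2-Aa was at 0.97 ± 0.53 and H2-Ab1 at 0.33 ± 0.26. In sh20 replicates B and C, H2-Eb1 stood at 130 and 56.9 CPM and H2-Aa at 137 and 80.8 CPM, so the size of both changes depends on replicate B. Over all alternatives H2-Eb1 ran from 0.34 to 2.15 and H2-Aa from -0.28 to 1.3. H2-K1 (-0.15), H2-D1 (-0.14) and B2m (-0.19) did not pass. Both sh20 libraries are among those that stood apart, so leaving both out leaves no value for sh20 in CMP. The call of Ciita held without sh20 replicate B (1.51) and without replicate C (1.97), and was lost without sh10 replicate B (1.56, adjusted p = 0.0805) or C (1.74, adjusted p = 0.07134), while adjusted p over all alternatives ran from 0.0001585 to 0.4238.

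In LSK none of the 10 genes passed in any comparison between shRNAs. For both Spehd shRNAs against Renilla, edgeR called 0% of 13441 genes in either direction, and among the 10 genes 3 had an unadjusted p under 0.05 and DESeq2 called 0. These were H2-K1 (-0.25 ± 0.09), H2-D1 (-0.22 ± 0.09) and B2m (-0.24 ± 0.10), all with adjusted p = 0.9976. The mean total of the Spehd libraries was 0.21 above that of Renilla on the log2 scale. For sh10 against Renilla edgeR called 0% of all genes and the same 3 genes had an unadjusted p under 0.05, with DESeq2 calling 0 of the 10. For sh20 against Renilla, and for sh20 against sh10, edgeR again called 0% of all genes, and 0 of the 10 had an unadjusted p under 0.05 or a DESeq2 call. The 95% interval for both shRNAs ran from -0.78 to 0.51 for H2-Aa, from -0.95 to 0.79 for H2-Eb1 and from -1.07 to 1.26 for Ciita, so differences within these ranges remain possible.

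The difference of the knockdown effect between CMP and LSK was tested as an interaction. None of the 10 genes passed in edgeR's quasi-likelihood test, beside 0.0531% of 15066 genes in either direction, with 0 of the 10 at an unadjusted p under 0.05 and 0 in DESeq2. The interaction was -0.15 ± 0.11 for H2-K1, with a 95% interval of -0.36 to 0.06, and 0.27 ± 0.75 for Ciita. Calls of class I genes in CMP and none in LSK are therefore not shown to differ.

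The genes were then compared between the cell types within each shRNA. H2-DMa, H2-Aa, H2-Ab1, H2-Eb1, Cd74 and Tap1 had lower mean levels in CMP than in LSK with every shRNA, and Ciita with Renilla and sh10 only. H2-K1, H2-D1 and B2m differed little. With sh20 only H2-DMa among the genes lower with every shRNA kept its direction. Total counts as a covariate put H2-Aa at 0.17, H2-Ab1 at 0.10, H2-Eb1 at 0.32 and Tap1 at 0.03, and Cd74 reached 0.2 under an alternative. Leaving out CMP sh20 replicate C put H2-Aa at 0.02 and H2-Eb1 at 0.13, and leaving out LSK sh20 replicate B put H2-Ab1 at 0.03 and H2-Eb1 at 0.11. With Renilla, H2-DMa was at -0.32 ± 0.11 with adjusted p = 0.05813, H2-Eb1 at -1.08 ± 0.53 and H2-Aa at -0.82 ± 0.43, and none of the 10 passed in edgeR's quasi-likelihood test beside 19.8% of all genes in either direction. Of the 10, 1 had an unadjusted p under 0.05, and DESeq2 called 1, which was H2-DMa in both cases. H2-DMa passed in edgeR without LSK sh10 replicate B (-0.30, adjusted p = 0.03894), without CMP Renilla replicate D (-0.38, adjusted p = 0.04203) or without the 3 libraries that stood apart (-0.32, adjusted p = 0.02585), over a range of 0.007271 to 0.2132 in all alternatives.

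With sh10, H2-Eb1 (-1.88 ± 0.63, adjusted p = 0.04992) and H2-DMa (-0.46 ± 0.13, adjusted p = 0.02347) were lower in CMP than in LSK, 2 of 10 beside 8.58% of all genes tested in edgeR. The CMP sh10 and LSK sh10 libraries did not overlap for 7 of the 10 genes, both called genes and uncalled ones among them. The share over all genes was not taken. Without LSK sh10 replicate B neither call held, and H2-Eb1 was at -1.36 (adjusted p = 0.1775) and H2-DMa at -0.32 (adjusted p = 0.1132). Without all 3 libraries that stood apart the values were -1.38 (adjusted p = 0.1417) and -0.34 (adjusted p = 0.0748). Over all alternatives adjusted p ran from 8.239e-10 to 0.1775 for H2-Eb1 and from 0.003161 to 0.1419 for H2-DMa. The call of H2-DMa was also lost without CMP sh10 replicate A or B, and that of H2-Eb1 without any 1 CMP sh10 library, LSK sh10 replicate C, LSK sh20 replicate A, CMP Renilla replicate D or LSK Renilla replicates A or B.

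With sh20, none of the 10 passed in edgeR's quasi-likelihood test, beside 14.6% of all genes in either direction. H2-DMa stood at -0.44 ± 0.15 with adjusted p = 0.05283, and DESeq2 called it alone with adjusted p = 0.03209, as did edgeR without LSK sh10 replicate B (0.03391) or LSK Renilla replicate C (0.04403), within a range of 0.03209 to 0.2085, while 2 of the 10 had an unadjusted p under 0.05. H2-K1 was at -0.24 ± 0.10 in this comparison against 0.05 ± 0.08 with Renilla and 0.03 ± 0.09 with sh10, and the difference between these was not tested on its own.

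**Figure D5:**
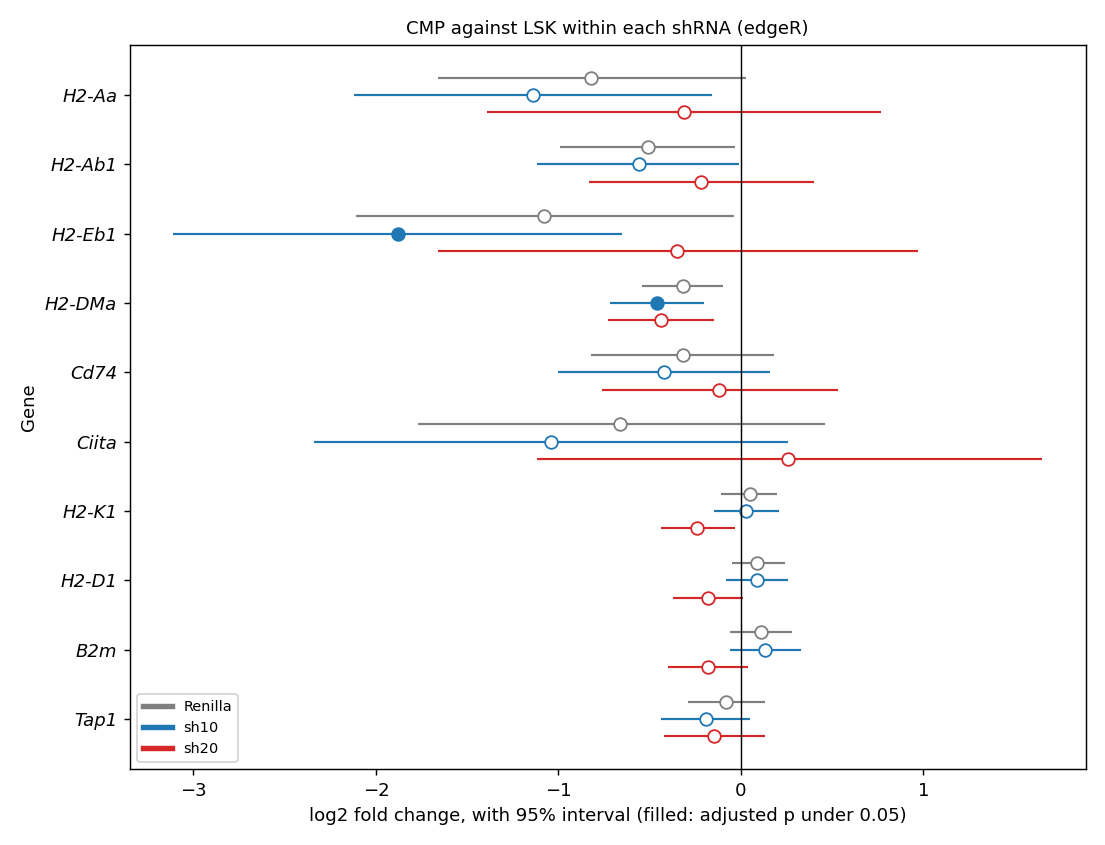
Log2 fold change of CMP against LSK for the 10 genes within each shRNA, with 95% intervals; filled points passed an adjusted p of 0.05. The filled points are H2-Eb1 (-1.88) and H2-DMa (-0.46) with sh10, and the class I genes H2-K1, H2-D1 and B2m lie between -0.24 and 0.13.

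Other genes of the class II pathway were read from a list of 14, of which 11 were tested in each comparison. Their median log2 fold change was 0.00 with sh10 and 0.69 with sh20 against Renilla in CMP, beside -0.01 and 0.01 over all genes. With total counts as a covariate 0 of all genes passed in any of the CMP comparisons between shRNAs, so the calls given for these comparisons in this and the other lists were lost there. The totals of the groups compared do not overlap, so those fits cannot tell depth from shRNA. None passed with sh10 in edgeR, where 2 had an unadjusted p under 0.05, beside 21.17% of all genes, and DESeq2 called 1 higher, beside 639 of the 13282 genes it tested. With sh20, H2-Ob, a chain of the DO molecule that restrains DM, fell (-1.03 ± 0.23) and March8, a ubiquitin ligase that removes class II from the surface, rose (0.66 ± 0.16), each 1 of 11 beside 4.27% lower and 1.9% higher of all genes. The call of H2-Ob was lost without CMP sh20 replicate C (-0.81, adjusted p = 0.05937) and that of March8 without replicate B (0.51, adjusted p = 0.1413). Ifi30, a thiol reductase of the endocytic pathway, was higher with sh20 than with sh10 (1.22 ± 0.25), the 1 call of that list, beside 2.77% of all genes that were higher, and it held without either sh20 library. In the contrast that called Ifi30, C1qa and T and NK cell markers were also higher, and their part in the result was not tested. Between cell types H2-DMb1, the partner of H2-DMa, was lower in CMP with Renilla (-0.86 ± 0.24) and with sh10 (-0.94 ± 0.27), H2-Oa was lower with sh10 (-1.22 ± 0.35), and March8 was higher with Renilla (0.73), sh10 (1.40) and sh20 (1.53). Without LSK sh10 replicate B the sh10 calls of H2-DMb1 (-0.59, adjusted p = 0.1398) and H2-Oa (-0.86, adjusted p = 0.1175) were lost and that of March8 held. The list's calls numbered 1 lower and 2 higher with Renilla, 3 and 1 with sh10, and 1 and 2 with sh20, out of 11, beside 1316 and 1663, 1293 and 1131, and 1302 and 895 of all 15066 genes. Of the 4 calls with sh10, 2 held without LSK sh10 replicate B, and of the 3 with sh20, 3 held without CMP sh20 replicate B and 2 without replicate C. Of 7 factors that bind class II promoters or recruit Ciita's partners, all tested, 1 passed, Creb1, which was lower with sh20 than with sh10 in CMP (-0.59 ± 0.12), beside 503 lower of all 13824 genes, and did not pass without sh20 replicate B (-0.54, adjusted p = 0.05596).

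Of 12 further class I heavy chain and related genes, 11 were tested. With sh10 against Renilla in CMP 10 of 11 were negative with a median of -0.42, and the nonclassical genes H2-Q6 (-0.52 ± 0.10) and H2-Q7 (-0.49 ± 0.09), which are close paralogs whose reads may be shared, fell, 2 of 11 beside 0.991% of all genes. T and NK cell markers fell in the same comparison, and the mean total with sh10 was 0.30 above Renilla on the log2 scale. The part of either was not tested. With sh20 none of the 11 passed, 2 had an unadjusted p under 0.05, beside 24.56% of all genes, and DESeq2 called 0, and the median was -0.13. H2-M3, which presents formylated peptides, was higher with sh20 than with sh10 (0.92 ± 0.19), at 122, 179 and 173 counts with sh10 and 387 and 322 with sh20, 1 of 11 beside 2.77% of all genes, and this call was lost without sh20 replicate B (0.81, adjusted p = 0.06143). It was lower in CMP than in LSK with Renilla (-0.74 ± 0.16) and sh10 (-1.20 ± 0.18), the latter also without LSK sh10 replicate B (-0.98). In all, 1, 5 and 2 of the 11 were lower in CMP with Renilla, sh10 and sh20, and none was higher, beside 1316, 1293 and 1302 lower of all 15066 genes. Of the 5 with sh10, 2 held without LSK sh10 replicate B, and of the 2 with sh20, 1 held without CMP sh20 replicate B and 1 without replicate C.

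The peptide loading list held 12 genes besides Tap1, all tested. Of these, 1 fell with sh10 in CMP, Psmb8 (-0.27 ± 0.06), and 4 fell with sh20, namely Psmb8 (-0.44 ± 0.06), the chaperone Calr (-0.38 ± 0.05), the proteasome activator Psme1 (-0.36 ± 0.08) and the disulphide isomerase Pdia3 (-0.35 ± 0.06), beside 0.991% and 4.27% of all genes. All 4 calls held without CMP sh20 replicate C, and those of Psme1 (adjusted p = 0.07457) and Pdia3 (adjusted p = 0.05087) were lost without replicate B. With total counts as a covariate none of these calls held. The medians of the list were -0.17 and -0.21. Psmb8 had 836 to 932 counts in CMP Renilla and 958 and 898 in CMP sh20, and Calr 1466 to 1593 against 1670 and 1662, so the counts with sh20 were within or above the range of Renilla before scaling to depth. Tapbpl, a relative of the loading factor tapasin, was lower in CMP than in LSK with every shRNA, by 0.67 to 0.88 on the log2 scale, and its calls with sh10 and sh20 held without LSK sh10 replicate B (-0.75) and without CMP sh20 replicate B (-0.86) or C (-0.90).

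Among 19 regulators of both pathways, 18 were tested. Irf8, a factor of dendritic cell and monocyte development, rose with sh10 in CMP by 1.86 ± 0.25, from 259, 192, 460 and 458 counts with Renilla to 1374, 1390 and 1657, and it had 577 and 611 counts with sh20. The class II chains did not pass in the same comparison. Ifngr1, a chain of the interferon gamma receptor, fell with sh20 (-0.35 ± 0.06), 1 of 18 beside 4.27% of all genes, also without CMP sh20 replicate B (-0.32) or C (-0.39). With sh20 against sh10, Socs1, an inhibitor of interferon signalling, was higher (1.79 ± 0.34), and Irf8 (-1.55 ± 0.31), Ifnar2 (-0.51 ± 0.12) and Ifngr1 (-0.33 ± 0.06) were lower, beside 383 higher and 503 lower of all 13824 genes. All 4 held without sh20 replicate C, and Irf8 alone held without replicate B (-1.49). In CMP against LSK 7 of the 18 were lower and 1 higher with Renilla, among them Irf8 (-1.25 ± 0.30) and Irf1 (-0.71 ± 0.14), beside 1316 lower and 1663 higher of all 15066 genes. With sh10 5 were lower and 1 higher, beside 1293 and 1131, and with sh20 6 were lower and 0 higher, beside 1302 and 895. Of the 6 calls with sh10, 5 held without LSK sh10 replicate B, and of the 6 with sh20, 5 held without CMP sh20 replicate B and 3 without replicate C.

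Of 31 interferon response genes, 27 were tested in the CMP comparisons. With sh10 2 fell, Irf7 (-0.90 ± 0.16) and Ifitm3 (-0.53 ± 0.11), and with sh20 1 rose, Oas3 (1.13 ± 0.25), beside 0.991% lower and 1.9% higher of all genes. The list's medians were -0.36 and 0.13. With sh20 against sh10 6 were higher and none lower, among them Oasl2 (1.44 ± 0.28), Usp18 (1.42 ± 0.33), Oas3 (1.16 ± 0.27) and Xaf1 (1.14 ± 0.22), beside 2.77% of all genes that were higher, with a median of 0.48 against 0.00 over all genes. All 6 held without sh20 replicate C, and without replicate B 2 held, Irf7 (1.22) and Xaf1 (1.17), while the call of Oas3 against Renilla was lost (0.76, adjusted p = 0.1319). Beside these values, 6 of 9 tested T and NK cell markers were lower with sh10 than with Renilla in CMP, beside 0.991% of all genes, and the summed level of 10 such markers was 111 to 138 CPM with sh10, 202 to 292 CPM with sh20 and 260 to 360 CPM with Renilla, and their part in the result was not tested. In CMP against LSK with Renilla 10 of 30 were lower, among them Iigp1 (-2.72 ± 0.64) and Ifi44 (-1.86 ± 0.38), and 1 was higher, beside 1316 lower and 1663 higher of all 15066 genes. The list's lower calls numbered 9 for sh10 and 8 for sh20, beside 1293 and 1302 over all genes, and its higher calls 1 and 0, beside 1131 and 895. Of its 10 calls for sh10, 7 held without LSK sh10 replicate B, and of the 8 for sh20, 4 held without CMP sh20 replicate B and 6 without replicate C. In LSK no gene of these 6 lists passed edgeR's quasi-likelihood test in any comparison between shRNAs, nor did any in CMP with both shRNAs as 1 group. For sh20 against sh10 in LSK, 10 of 30 interferon response genes had an unadjusted p under 0.05, beside 9.17% of all genes, and DESeq2 called 3 higher, beside 105 of the 17398 genes it tested. In CMP with both shRNAs pooled, the peptide loading list had 8 of 12 genes at an unadjusted p under 0.05, beside 16.64% of all genes, and 5 called lower by DESeq2, beside 434 of the 9392 genes it tested.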

How the data were processed

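RNA from 19 libraries of sorted CMP and LSK cells was analysed. The authors aligned reads to mm10 with STAR, removed duplicates with Picard and deposited raw read counts per gene from HTSeq-count on a GENCODE annotation, with default parameters stated. Rows that name no gene were left out of library sizes, and as shares of each file they were non-unique alignments (39.61 to 50.89%), no feature (26.43 to 32.2%) and ambiguous (0.371 to 0.442%). Libraries were grouped by the labels' cell type and knockdown. The counts were tested with edgeR 4.0.16 (quasi-likelihood test, TMM, filterByExpr at its settings of 10 for single and 15 for total counts) in R 4.3.3, with Benjamini-Hochberg adjustment over all genes tested and a threshold of 0.05, in 12 comparisons. Knockdown was fitted per cell type with the shRNAs pooled and as 3 groups, and cell types and the interaction in 1 fit of 6 groups. Log2 CPM used a prior count of 2, and 95% intervals are the estimate ± 1.96 SE. The fits were tested on simulated data. Alternatives were DESeq2 1.42.0, other normalizations and filters, a replicate block, total counts as a covariate, other sets of libraries and leaving out each library. All 10 genes are named with values. From each pathway list up to 4 called genes with the largest fold change were named, from each marker list its defining genes, and for likeness the 5 genes with the highest r and a mean of at least 10 counts. H2-Ea-ps and the markers cited for single libraries were named after their values were seen. The 10 genes, lists and tests were chosen with earlier results of these data known. The lists were class II antigen presentation, class II transactivation, class I heavy chains, class I peptide loading, regulators, interferon response and markers of dendritic cells, B cells, monocytes and macrophages, and T and NK cells. Promoters were searched over 250 bases before each start.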

Additional observations from a re-analysis of the deposited data

Results flagged for a closer look

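Among 40 sets of values of 1 gene in 1 group of 4 or more libraries, 1 held a library far from the others. H2-DMa in LSK Renilla was highest in replicate C, at 7.62 log2 CPM against 7.25 in the next library, and the gap made up 0.913 of the range, where 0.829 is the critical value for 4. Chance alone gives about 1 in 20 such sets. This library is the shallowest of the 19, and its 722 counts of H2-DMa lay within the 703 to 751 counts of the other 3 libraries.

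The effects of the shRNAs on Ciita in CMP differed, with sh20 above sh10 by 1.75 on the log2 scale (adjusted p = 0.02144, edgeR's quasi-likelihood test), from 54, 30 and 41 counts with sh10 to 197 and 139 with sh20. Both sh20 libraries lay above all 3 sh10 libraries, in a comparison where 7 of the 10 genes did not overlap. The exons of Ciita overlap those of Dexi on the other strand, which had up to 438 counts, and the part of that overlap was not tested.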

How the results depend on the processing

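Of 2520 values of the 10 genes under alternatives, 2390 kept their direction and side of the threshold, 42 newly passed it, 56 no longer passed it and 32 changed sign. No called value changed sign, and 155 further sign changes of values that were not called moved by under 1 SE and are counted as kept. The cause of these changes was not tested.

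With both shRNAs pooled in CMP, 3 of the 10 genes were called with upper quartile normalization, DESeq2, each shRNA as its own group or a joint fit of the 19 libraries, 2 with at least 10 counts in every library, and 0 to 3 without 1 library. Leaving out the 3 libraries that stood apart, an alternative chosen after seeing the data, leaves sh10 as the only Spehd shRNA in CMP, with 3 called. For sh10 in CMP 1 was called without a filter, 0 with total counts as a covariate or all 19 libraries in 1 fit, and 0 to 3 without 1 library. For sh20 in CMP the covariate left 0, and 3 to 4 remained without 1 library. For sh20 against sh10 in CMP 2 were called without a filter or by DESeq2, 0 with the covariate and 0 to 2 without 1 library. For CMP against LSK with Renilla 3 were called without a filter, 1 by DESeq2, with the covariate or without the 3 libraries, and 0 to 1 without 1 library. With sh10 there were 4 without a filter, 0 without the 3 libraries and 0 to 2 without 1 library, and with sh20 there was 1 by DESeq2 and 0 to 1 without 1 library. The LSK comparisons and the interaction gave 0 of the 10 without any 1 library.

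The replicate letters were not established as pairing the libraries. Deviations from group means correlated at -0.111 to 0.104 for libraries of the same cell type and letter, and the own letter correlated best in 8 of 32 cases. For CMP and LSK libraries of the same shRNA, which enter the comparisons between cell types, the 9 pairs of the same letter ran from -0.001 to 0.238 with a median of 0.054, and the 22 pairs of other letters from -0.2 to 0.106 with a median of -0.03. With the letter as a replicate block, the calls went to 0 for sh10, sh20 and sh20 against sh10 in CMP and to 1 for CMP against LSK with sh10.

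With the total counts as a covariate, whose values in CMP do not overlap between Spehd and Renilla, signs changed for pooled CMP in Ciita (-1.94), for pooled LSK in H2-Aa (0.43), H2-Ab1 (0.12), H2-Eb1 (0.60), H2-DMa (0.15) and Cd74 (0.08), and for sh20 in CMP in H2-Aa (-2.37), H2-Ab1 (-1.23) and H2-Eb1 (-2.29). They changed for sh20 against sh10 in CMP in H2-Aa (-0.28), H2-Ab1 (-0.21), Cd74 (-0.23), H2-K1 (0.02) and Tap1 (-0.08), for sh10 in LSK in H2-Aa (0.49), H2-Ab1 (0.25), H2-Eb1 (0.68), H2-DMa (0.21) and Cd74 (0.21), and for sh20 in LSK in H2-Aa (0.40), H2-Ab1 (0.04), H2-Eb1 (0.54) and H2-DMa (0.10). They also changed for CMP against LSK in H2-K1 with Renilla (-0.04) and Tap1 with sh20 (0.03), and for the interaction in H2-DMa (0.02), B2m (0.01) and Tap1 (0.07). Upper quartile normalization moved the median of all genes to -0.11 in CMP against LSK with sh10 and turned H2-K1 (-0.10) and H2-D1 (-0.04). Ciita in CMP was 0.45 with both shRNAs and -0.52 without the 3 libraries, which is the value of sh10 alone, and H2-Eb1 with sh20 in CMP ranged from -0.00 (without sh20 replicate B) to 1.21 (without sh20 replicate C).

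Over all genes, upper quartile normalization gave 284 lower and 44 higher in pooled CMP (10 and 5 by TMM), 338 and 113 for sh10 (137 and 135), 850 and 213 for sh20 (590 and 263), and 1629 and 764 for CMP against LSK with sh10 (1293 and 1131). DESeq2 gave 434 and 448 in pooled CMP, 591 and 639 for sh10, 1009 and 697 for sh20, and 1043 and 935 for sh20 against sh10 (503 and 383 by edgeR). Without the 3 libraries sh10 in CMP gave 523 and 629, and CMP against LSK with Renilla 2164 and 2354 (1316 and 1663 with all). In CMP the covariate left 0 calls in the pooled, sh10, sh20 and sh20 against sh10 comparisons, and the replicate block left 0 pooled, 5 lower for sh10, 0 for sh20, and 21 lower and 7 higher for sh20 against sh10. Without a filter there were 12 and 17 in pooled CMP, 297 and 500 for sh10, 745 and 740 for sh20 against sh10 in CMP, and 123 and 130 for the interaction (8 and 0). Libraries of 3647318 to 5965155 counts and 2 to 4 libraries a group limit what could be detected.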
